A study of Mus musculus with 12 samples.

Results

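Solute carriers are the large class of membrane proteins that move amino acids, sugars, ions, nucleotides and metabolites across the plasma membrane and the membranes of organelles. Their genes were followed here in mouse embryonic stem cells given hydrogen peroxide. The members were the genes whose single symbol in the array annotation starts with Slc and a digit, without Slc30a1, Slc2a1 and Slc2a3. This gave 148 of the 8251 genes with a single symbol on the array, read by 181 probe sets (sets of short oligonucleotides that read 1 transcript). Of the 148, 113 had a probe set bright enough to be tested. The rule used names only and no measured value.

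RNA was measured on 12 Affymetrix MG_U74Av2 arrays, each with 1 sample. The cells were 1 clone (C2) of the E14tg2a embryonic stem cell line that carries targeted recognition sites for the endonuclease I-SceI, and every group shares this genotype. Control cells were kept in phosphate-buffered saline alone (PBS, n = 3). The low dose was 100 µM hydrogen peroxide in PBS for 15 min (n = 4) and the high dose 5 mM for 30 min (n = 5), each followed by 1 h of recovery in medium. Dose and exposure time differ together and cannot be told apart. Whether the controls also had the recovery period is not stated plainly, so a return to medium and peroxide cannot be told apart against PBS. Whether replicates came from separate cultures is not labelled, so the spread behind each p-value may be technical only.

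Values are MAS5 signals, an intensity on a linear scale. Levels of different genes are not compared, since each probe set has its own response. Differences are log2 differences after 10.1 units were added to each signal, given with their standard error (SE) from limma. A gene passed when its adjusted p (Benjamini-Hochberg over all 8695 tested probe sets) was below 0.05. Array medians were 56.1 to 64.7 in PBS, 67.1 to 77.6 after the low dose and 61.5 to 70.7 after the high one, and the brightest value of each array was 7206 to 8904, 14976 to 24225 and 19733 to 34685 in the same order. Bright genes were often called higher against PBS. Of 306 genes with a mean signal above 2000, 27.8% were higher after the high dose and 21.2% after the low dose. Of 112 genes above 4000, these shares were 49.1% and 35.7%. Of all tested genes they were 5.36% and 11.9%. Only Slc25a36 and Slc3a2 among the members had a mean signal above 2000. The 11 embryonic stem cell markers measured (Pou5f1, Sox2, Nanog and others) had a summed signal of 26850 to 29970 in PBS, 33130 to 38900 after the low dose and 30280 to 35940 after the high one. Dppa5a, the brightest of them, averaged 6070, 8900 and 9650 in the same order. The part of the shift of bright genes in this sum was not tested. Single markers went both ways against PBS, with 4 higher and 1 lower after the low dose and 2 higher and 1 lower after the high dose. Markers of primitive and visceral endoderm, an extraembryonic lineage that can arise in such cultures, moved strongly: the summed signal of 19 measured markers was 6504 to 9638 in PBS, 10090 to 10650 after the low dose and 1188 to 1450 after the high one, with 13 of 17 tested markers lower and none higher after the high dose against PBS, and 7 higher and none lower after the low dose. Foxq1 and Hs3st1, 2 of these markers, averaged 8.68 and 2.04 after the high dose, below the 10.1 units added. Without detection calls, a signal above 0 does not show that a marker was present. In bulk RNA, fewer cells of a type and less RNA per cell cannot be told apart, and the part of these markers in the solute carrier differences below was not tested. Fibroblast (feeder) markers summed to 1276 to 1531, 1569 to 1978 and 1341 to 1713 in the same order.

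Of the 113 tested solute carrier genes, 77 passed in no comparison and 36 passed in at least 1. The matching share of all tested genes was not counted, so these numbers have no background beside them. After the low dose 9 rose, 10 fell and 94 did not pass against PBS, or 16.8% called, where 24.6% of the 6414 tested genes were called (11.9% higher, 12.7% lower). After the high dose 4 rose, 14 fell and 95 did not pass against PBS, or 15.9% called, against 12.2% of all tested genes (5.36% higher, 6.84% lower). Between the high and the low dose 8 were higher at the high dose, 13 lower and 92 did not pass, or 18.6% called, against 29% of all tested genes (13.8% higher, 15.2% lower). The members' median log2 differences were 0.03, -0.03 and -0.08 in these comparisons, and those of all tested genes 0.04, -0.01 and -0.04. The high-dose count against PBS was 5 without PBS replicate 2, or 4.46% of the members tested there against 5.51% of all genes, so the order of these shares turned. It was 9 without PBS replicate 3 (7.89% against 6.82%), 11 without high-dose replicate 1 (9.91% against 8.37%) and 11 without high-dose replicate 5 (9.65% against 9.14%). The low-dose count was 11 without PBS replicate 2 (9.82% against 16.5%). With array quality weights the counts were 28 for the high dose (24.8% against 19.7%) and 29 for the low dose (25.7% against 30%). With every array scaled to a common median, which lowered the median of all tested genes after the low dose to -0.13, the split was 5 higher and 20 lower after the low dose, 2 and 16 after the high dose, and 11 and 10 between the high and the low dose.

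**Figure D1:**
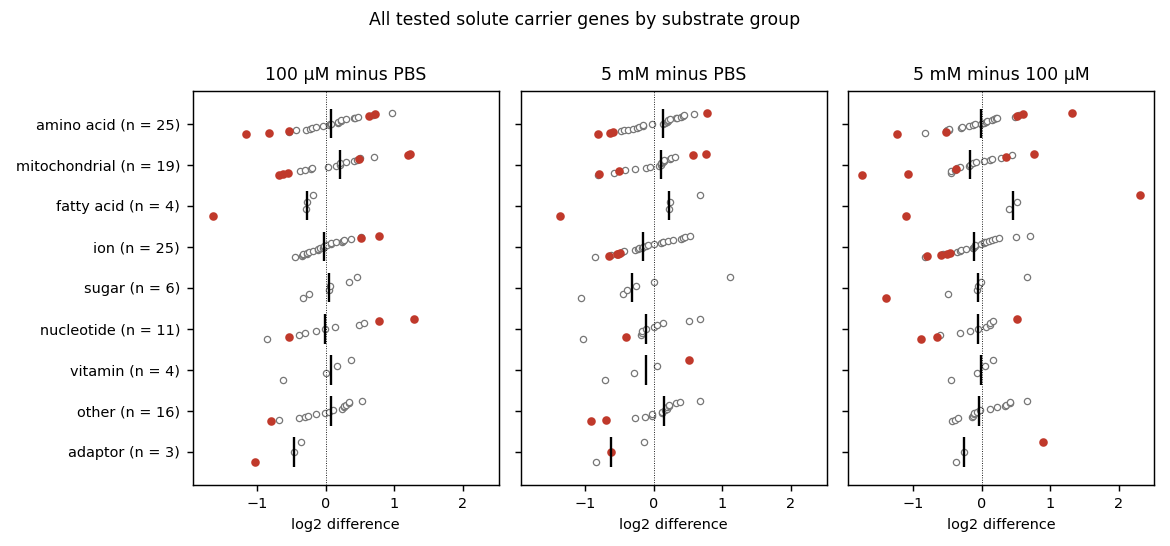
Log2 difference of each of the 113 tested solute carrier genes (1 point per gene, spread vertically within its substrate group for visibility) for the low dose minus PBS, the high dose minus PBS and the high dose minus the low dose. Filled points passed at an adjusted p below 0.05, open points did not, and the vertical bars are group medians. Taken over all groups, most points lie near 0. In the third panel the fatty acid genes run from -1.10 to 2.32 and the adaptor genes from -0.38 to 0.89. The widest differences in the third panel are those of Slc27a1 (2.32), Slc25a20 (-1.74) and Slc37a4 (-1.39).

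Among amino acid carriers, Slc38a2 and Slc38a4 responded to each dose in opposite directions. Of the 25 tested, 2 rose and 3 fell after the low dose, 1 rose and 3 fell after the high dose, and 3 were higher and 2 lower at the high dose than at the low dose, with medians of 0.07, 0.14 and -0.01. These are 20%, 16% and 20% of the group, against 24.6%, 12.2% and 29% of all tested genes. The group was set by family number, so these counts and medians include carriers of other substrates. Slc6a8, the creatine transporter gene, is 1 of the 3 that fell after the high dose. It is also 1 of the 2 that were lower at the high than at the low dose. Slc38a2 encodes a sodium-coupled carrier of small neutral amino acids (system A) whose gene is known for its induction by amino acid starvation. Its signal was 859, 886 and 1042 in PBS, 1625, 1474, 1311 and 1364 at the low dose, and 663, 443, 653, 833 and 522 at the high dose. All low-dose arrays lay above the PBS arrays and all high-dose arrays below them. The log2 difference was 0.63 ± 0.17 after the low dose (adjusted p = 0.0159), -0.60 ± 0.17 after the high dose (0.0303), and -1.23 ± 0.15 between the high and the low dose (2.37e-05). The call after the low dose was lost without PBS replicate 1 (0.0503), without PBS replicate 2 (0.0565) and with common median scaling (0.111). The call after the high dose was lost without PBS replicate 2 (0.0759), PBS replicate 3 (0.125), high-dose replicate 2 (0.0527) or high-dose replicate 5 (0.0675), with no variance trend (0.0627) and with only those groups in the fit (0.052). The difference between the doses was called under all 23 alternatives. One of these reads a second probe set, and for a gene with a single tested probe set, such as Slc38a2, it repeats the main value and cannot fail.

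Slc38a4, which encodes another system A carrier and is imprinted in the mouse, ran the other way. It read 612.1, 735.1 and 554.8 in PBS, 337, 466, 481 and 448 at the low dose, and 1127, 1113, 1138, 1063 and 984 at the high dose. No array of one group reached the range of another. The log2 difference was -0.54 ± 0.14 after the low dose (adjusted p = 0.0113), 0.77 ± 0.13 after the high dose (0.00156) and 1.32 ± 0.12 between the high and the low dose (1.38e-06), a 2.49-fold higher signal at the high dose. The call after the low dose was lost without PBS replicate 2 (0.0676), and the other calls were kept under all 23 alternatives.

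The promoters of these genes are shown because both passed in every comparison and in opposite directions. They are the 250 bases before a RefSeq gene start in GRCm38.p6, read 5′ to 3′ on the gene's strand. Slc38a2 has 1 start in that table, and its window is chr15:96699729-96699978 on the minus strand. Slc38a4 has 3, of which the most upstream is shown, chr15:97055957-97056206 on the minus strand. Which start was used in these cells was not measured.
Slc38a2: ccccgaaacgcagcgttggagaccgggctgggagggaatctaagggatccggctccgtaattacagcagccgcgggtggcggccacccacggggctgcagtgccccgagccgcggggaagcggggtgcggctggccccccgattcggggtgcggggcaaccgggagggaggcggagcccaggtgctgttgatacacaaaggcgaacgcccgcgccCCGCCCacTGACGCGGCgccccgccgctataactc
Slc38a4: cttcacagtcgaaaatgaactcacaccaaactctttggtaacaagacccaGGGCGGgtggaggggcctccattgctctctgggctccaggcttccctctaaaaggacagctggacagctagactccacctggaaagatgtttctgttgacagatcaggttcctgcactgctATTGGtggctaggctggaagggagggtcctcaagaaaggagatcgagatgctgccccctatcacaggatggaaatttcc
Capitals mark matches on either strand to 5 motifs searched: the CCAAT box (CCAAT), the TATA box (TATAAA), the GC box (GGGCGG), the core of the antioxidant response element (TGACNNNGC) and the core of the C/EBP-ATF response element (TGATGNAA). The Slc38a2 window held a GC box on the opposite strand, beginning 35 bases before the start, and an antioxidant response element core 27 bases before it. The Slc38a4 window held a GC box 200 bases and a CCAAT box 79 bases before the start. None of these matches overlapped. Of 32851 windows of the same length, 33.8% held a CCAAT box, 12.4% a TATA box, 32.7% a GC box, 10.2% the antioxidant core and 3.45% the C/EBP-ATF core. A match describes letters only and is not evidence of binding.

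Slc7a7 and Slc7a3, genes of cationic amino acid carriers, fell after the low dose. Slc7a7 encodes the light chain that pairs with the Slc3a2 product to exchange cationic for neutral amino acids. It read 767, 895 and 998 in PBS, 389, 458, 286 and 448 at the low dose, and 448, 568, 585, 695 and 543 at the high dose. Every peroxide array was below every PBS array. The log2 difference was -1.16 ± 0.17 after the low dose (adjusted p = 0.000299), -0.64 ± 0.17 after the high dose (0.0218) and 0.52 ± 0.15 between the high and the low dose (0.0183). Slc7a3, which encodes a carrier of arginine and lysine, read 1027, 576 and 623 in PBS, 403, 402, 449 and 346 at the low dose, and 556, 807, 582, 588 and 568 at the high dose. Low-dose arrays lay below all others, while the PBS and high-dose arrays overlapped. It fell after the low dose (-0.83 ± 0.19, adjusted p = 0.00467) and was higher at the high dose than at the low dose (0.61 ± 0.16, 0.0102). Against PBS the high dose gave -0.22 ± 0.18 (0.461), a value that was 0.04 without PBS replicate 1. The Slc7a7 call after the high dose was lost without PBS replicate 2 (0.0777), PBS replicate 3 (0.0999) or high-dose replicate 1 (0.0518), and its call between the doses without low-dose replicate 3 (0.0719).

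Of 10 tested genes of the Slc6 family, whose carriers are coupled to sodium and chloride, Slc6a8 and Slc6a9 passed in a comparison. How many of all tested genes passed in at least 1 comparison was not counted. Slc6a8, the creatine transporter gene, read 539, 856 and 651 in PBS, 588, 505, 528 and 574 at the low dose, and 384, 410, 345, 346 and 408 at the high dose. All high-dose arrays were below all other arrays. The gene fell after the high dose (-0.81 ± 0.14, adjusted p = 0.00159) and was lower at the high than at the low dose (-0.52 ± 0.13, 0.00649). Slc6a9, the glycine transporter gene GlyT1, read 196, 174 and 162 in PBS, 309, 316, 333 and 241 at the low dose, and 249, 274, 206, 256 and 240 at the high dose. It rose after the low dose (0.72 ± 0.15, adjusted p = 0.00323), while the high dose gave 0.44 ± 0.14 (0.0587), with peroxide arrays above PBS arrays at both doses. These Slc6a8 calls and the low-dose call of Slc6a9 were kept under all 23 alternatives.

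The heavy chain gene Slc3a2 and its leucine-carrying partner Slc7a5 did not pass in any comparison. Slc3a2 read 1951 to 2288 in PBS, 2063 to 3307 after the low dose and 2126 to 3379 after the high one, with 95% intervals of -0.17 to 0.61 for the low and 0.05 to 0.80 for the high dose against PBS. Slc7a5 read 1290 to 1965, 1143 to 2126 and 1207 to 1752, with intervals of -0.68 to 0.19 and -0.58 to 0.25. These ranges overlap between all groups, and the intervals leave room for moderate differences. Slc1a5, a glutamine carrier gene, had a difference of 0.49 between the high and the low dose (adjusted p = 0.0596), which passed with quantile normalization (0.0203), common median scaling (0.0268), the filter at the 50th percentile (0.0447) and no variance trend (0.0307). Slc7a2, a cationic amino acid carrier gene read at 5.27 to 52.3 over all arrays, had the highest low-dose difference of the amino acid carriers, at 0.97, and did not pass (0.115). The cystine carrier gene Slc7a11, a known Nrf2 target, was too dim to test, with mean signals of 7.344 in PBS, 13.04 after the low dose and 15.2 after the high one. Slc7a1 was also too dim, at 12.1, 6.49 and 6.58.

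**Figure D2:**
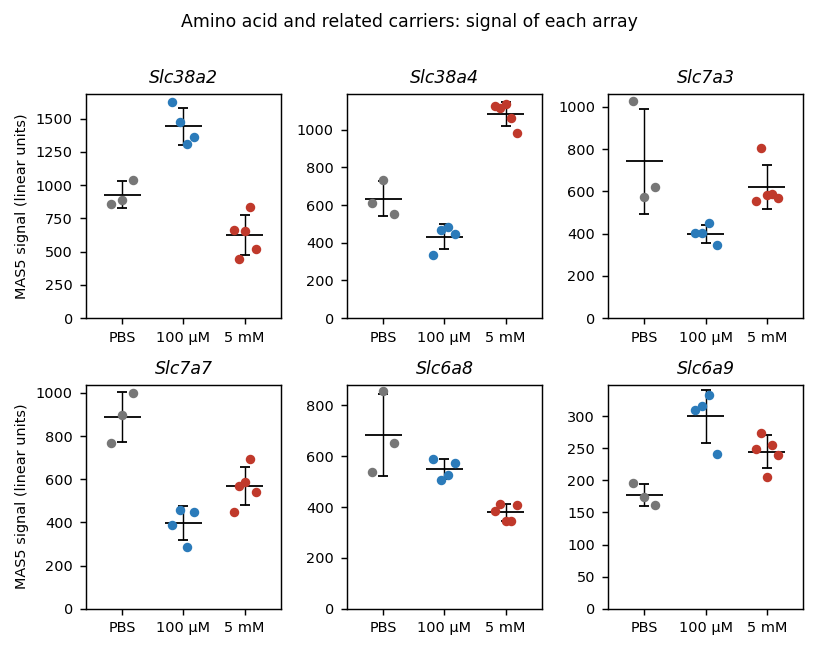
MAS5 signal (linear units, axis from 0) of 6 amino acid and related carriers in each array of the PBS (n = 3), 100 µM (n = 4) and 5 mM (n = 5) groups. Points are arrays, horizontal bars are means and error bars are SD. Slc38a2 is highest at 100 µM (1311 to 1625) and Slc38a4 at 5 mM (984 to 1138), while Slc7a7 is highest in PBS (767 to 998).

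Carriers of the Slc25 family exchange metabolites, cofactors and nucleotides across the mitochondrial inner membrane, with a few members in other organelles. Of 19 tested, 3 rose and 3 fell after the low dose, 2 rose and 2 fell after the high dose, and 2 were higher and 3 lower at the high than at the low dose, with medians of 0.20, 0.11 and -0.17. These are 31.6%, 21.1% and 26.3% of the group, against the same shares of all tested genes as above. Slc25a20 had the widest difference among them between the doses. It encodes the carnitine-acylcarnitine carrier that brings fatty acyl groups into mitochondria for oxidation. Its signal was 219, 320 and 336 in PBS, 589, 842, 600 and 745 at the low dose, and 191, 199, 197, 186 and 222 at the high dose. Low-dose arrays stood above all others, and high-dose arrays reached into the PBS range at 1 array. The log2 difference was 1.23 ± 0.17 after the low dose (2.35-fold, adjusted p = 0.000145) and -1.74 ± 0.15 between the high and the low dose (5.03e-07), both called under all 23 alternatives. Against PBS the high dose gave -0.51 ± 0.16 (0.0495). That last call was lost under 16 of 23 alternatives, among them the omission of any single array other than PBS replicate 1 and low-dose replicate 2 (0.0519 to 0.204).

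Slc25a11, Slc25a1 and Slc25a28 were lower after the low dose, and Slc25a11 also after the high dose. Slc25a11, the gene of the 2-oxoglutarate/malate carrier, read 432, 458 and 436 in PBS, 290, 359, 279 and 188 at the low dose, and 267, 281, 274, 232 and 200 at the high dose. All peroxide arrays were below all PBS arrays. It fell after the low dose (-0.68 ± 0.18, adjusted p = 0.0146, lost without PBS replicate 2 at 0.0511) and after the high dose (-0.80 ± 0.18, 0.00784, called under all alternatives). Slc25a1, the citrate carrier gene, averaged 553 ± 142 (SD, n = 4) at the low dose and 857 ± 224 (n = 3) in PBS, a difference of -0.62 (0.0276). Slc25a1 averaged 928 ± 60.6 (SD, n = 5) at the high dose, 0.77 above the low dose (0.00292). A second, dimmer probe set of Slc25a1 gave 0.13 and 0.03 in these comparisons and did not pass. The low-dose call of Slc25a1 was lost without PBS replicate 2 (0.145), PBS replicate 3 (0.0923), low-dose replicates 2 (0.0804) or 3 (0.0764). Slc25a28, which encodes the iron carrier mitoferrin-2, fell after the low dose (-0.56, adjusted p = 0.0245). That call was lost without PBS replicate 2 (0.104), PBS replicate 3 (0.0691), low-dose replicates 2 (0.0583) or 3 (0.072).

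Other Slc25 genes rose. Slc25a17, whose product carries cofactors across the peroxisomal rather than the mitochondrial membrane, read 385, 418 and 395 in PBS, 489, 537, 503 and 442 at the low dose, and 685, 645, 534, 660 and 490 at the high dose. Every peroxide array was above every PBS array. The rise passed after the high dose (0.57 ± 0.13, adjusted p = 0.0103, under all alternatives) and not after the low dose (0.29 ± 0.14, 0.129), and the doses did not differ by the test (0.28, 95% interval 0.02 to 0.53, 0.0982). Slc25a47 was dim, at 23.7, 31.5 and 13.9 in PBS, 70.8, 59.5, 71.1 and 55.6 at the low dose, and 34.3, 46.2, 52.4, 49.3 and 42.4 at the high dose, again with all peroxide arrays above PBS. It rose after the low dose (1.20 ± 0.24, adjusted p = 0.00241), and after the high dose by 0.76 (0.0432). The high-dose call was lost under 14 alternatives, among them the omission of any single array other than PBS replicate 2, low-dose replicates 1 and 4 and high-dose replicate 1 (0.0514 to 0.2). Slc25a36, a pyrimidine nucleotide carrier gene, averaged 2724 ± 303 (SD, n = 4) at the low dose and 1939 ± 87.2 (n = 3) in PBS, a rise of 0.48 (0.0146) that was lost without PBS replicate 2 (0.0583) and with common median scaling (0.237).

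Between the high and the low dose, Slc25a36 was lower (-0.37, adjusted p = 0.023), as was the dim Slc25a53 (-1.07, 0.0247). Slc25a39, whose product is needed for glutathione import into mitochondria, was higher at 1685 ± 111 (SD, n = 5) against 1319 ± 91.6 at the low dose (n = 4), a difference of 0.35 (0.0159). The Slc25a36 call was lost without low-dose replicate 2 (0.071), low-dose replicate 3 (0.0744) or high-dose replicate 5 (0.0576) and with common median scaling (0.226). The Slc25a39 call was lost without low-dose replicate 2 (0.0576), and that of Slc25a53 without low-dose replicate 1 (0.0609), low-dose replicate 3 (0.0638) or high-dose replicate 2 (0.0565). The ADP/ATP carrier genes did not pass. Slc25a4 read 1596 to 1870 in PBS, 1831 to 2020 after the low dose and 1583 to 1970 after the high one, with intervals of -0.05 to 0.44 and -0.12 to 0.34 for the low and the high dose against PBS. Slc25a5, read by a probe set marked as shared with similar sequences, gave -0.21 and 0.25 against PBS and 0.45 between the high and the low dose (adjusted p = 0.0758). Without PBS replicate 1 the low-dose value of Slc25a5 was -0.51 and passed (0.0485). The value between the doses passed without PBS replicate 1 (0.0184), without low-dose replicate 1 (0.0478), with common median scaling (0.0146), with array quality weights (0.0343) and with only those groups in the fit (0.0252). Dimmer tested probe sets of Slc25a5 gave 0.03 and 0.00 between the doses and did not pass (0.918 and 0.996). Slc25a25, an ATP-magnesium/phosphate carrier gene, had -0.82 after the high dose (0.214), with high-dose replicate 2 at 40.3 against 209 to 257 on the other high-dose arrays.

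Genes of the Slc27 family encode fatty acid transport proteins, which take up fatty acids and join them to coenzyme A. Of the 4 tested, Slc27a1 fell after the low dose and Slc27a3 after the high dose. The called shares were 25%, 25% and 50% for the low dose, the high dose and between the doses. Of all tested genes, 24.6%, 12.2% and 29% were called. Slc27a1 read 24.6, 103 and 100 in PBS, 9.24, 18.3, 11.6 and 18.2 at the low dose, and 91.6, 121, 132, 93.0 and 121 at the high dose. The low-dose arrays were all below the others, and PBS replicate 1 stood well below the other PBS arrays. The log2 difference was -1.65 ± 0.34 after the low dose (adjusted p = 0.00304) and 2.32 ± 0.30 between the high and the low dose (5.01-fold, 3.6e-05), both called under all alternatives that tested the gene. Since the low-dose signals lie near the added 10.1 units, the size depends on that choice, and it was -1.01 to -2.22 and 1.47 to 2.98 over the alternatives. The high dose gave 0.67 ± 0.33 against PBS (0.207).

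Slc27a3 read 37.3, 62.7 and 81.0 in PBS, 67.7, 15.0, 42.9 and 87.5 at the low dose, and 15.2, 20.4, 15.9, 12.5 and 17.5 at the high dose. High-dose arrays were below all PBS arrays and overlapped the low-dose range at its lowest array. The gene was lower at the high dose than in PBS (-1.37 ± 0.36, adjusted p = 0.0239) and than at the low dose (-1.10 ± 0.34, 0.0218). The first call was lost without PBS replicate 2 (0.0875) or PBS replicate 3 (0.114), and the second without low-dose replicate 1 (0.0728) or low-dose replicate 4 (0.0847). The high-dose signals of Slc27a3 lie near the added 10.1 units too, and the differences ranged over -1.84 to -0.81 and -1.49 to -0.66 across the alternatives. Slc27a2 and Slc27a4 were dim, at 8.58 to 48.8 and 8.79 to 63.25 over all arrays, and passed in no comparison.

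The promoters of Slc25a20 and Slc27a1 are given because these genes had the largest differences between the doses, in opposite directions. The Slc25a20 window is chr9:108661886-108662135 and that of Slc27a1, the most upstream of 3 starts, is chr8:71568621-71568870, both on the plus strand of GRCm38.p6.
Slc25a20: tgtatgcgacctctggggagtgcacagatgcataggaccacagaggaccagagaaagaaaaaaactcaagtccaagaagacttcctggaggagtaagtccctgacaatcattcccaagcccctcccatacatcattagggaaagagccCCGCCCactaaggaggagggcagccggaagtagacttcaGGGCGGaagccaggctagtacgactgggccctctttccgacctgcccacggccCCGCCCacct
Slc27a1: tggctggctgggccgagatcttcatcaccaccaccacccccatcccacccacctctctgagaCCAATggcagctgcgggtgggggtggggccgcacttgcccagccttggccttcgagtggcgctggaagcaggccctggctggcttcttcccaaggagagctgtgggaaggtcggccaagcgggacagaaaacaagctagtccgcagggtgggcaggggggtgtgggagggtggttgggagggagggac
Capitals again mark motif matches. Slc25a20 held 3 GC boxes, beginning 102, 63 and 10 bases before the start, and Slc27a1 a CCAAT box 188 bases before it, with no overlaps. No letters of the TATA box or of either response element core were found in these windows, which says only that these letters are not there.

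**Figure D3:**
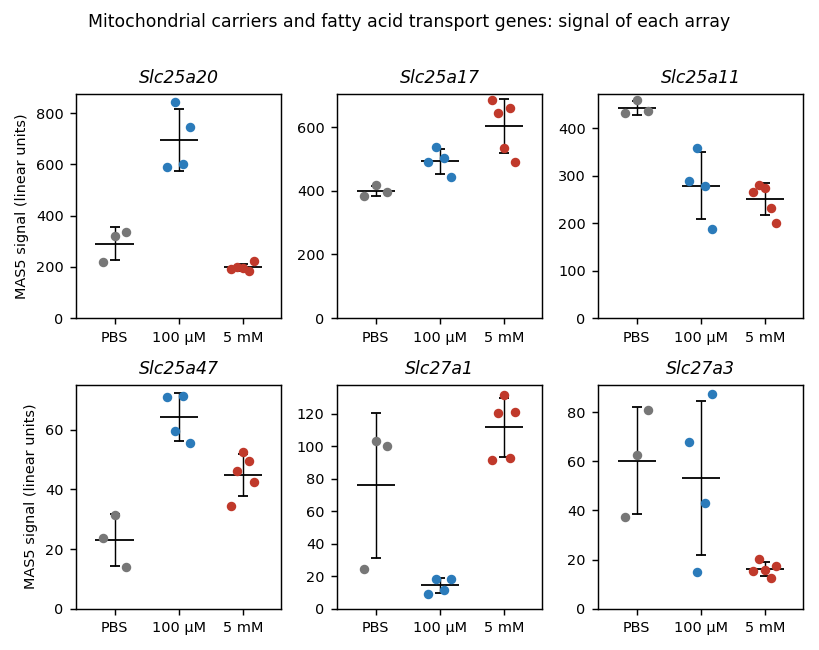
MAS5 signal (linear units, axis from 0) of 4 Slc25 carriers and 2 fatty acid transport genes in each array of the PBS (n = 3), 100 µM (n = 4) and 5 mM (n = 5) groups. Points are arrays, horizontal bars are means and error bars are SD. Slc25a20 is high at 100 µM (589 to 842), where Slc27a1 is low (9.24 to 18.3), and Slc25a11 is below its PBS values (432 to 458) on every peroxide array.

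Read by their brightest probe set, 4 of the 25 tested ion carrier genes fell and none rose in limma after the high dose against PBS (7 lower and 2 higher at an unadjusted p under 0.05). Between the high and the low dose 4 were lower and none higher (8 lower and 1 higher under 0.05), and after the low dose 2 rose and none fell (4 higher and 1 lower under 0.05). The adjusted calls are 16%, 16% and 8% of the ion carriers, against 12.2%, 29% and 24.6% of all tested genes. At an unadjusted p under 0.05 in limma stood 9, 9 and 5 of the 25 ion carriers and 36, 36 and 37 of all 113 members. The matching share of all tested genes, and its split by direction, was not counted. A dimmer probe set of the iron carrier gene Slc11a2 went the other way. It read 113, 105 and 88.0 in PBS, 93.6, 71.8, 103 and 112 at the low dose, and 130, 150, 182, 160 and 193 at the high dose, with every high-dose array above all others. It was higher at the high dose than in PBS (0.62, adjusted p = 0.0359) and than at the low dose (0.72, 0.00414), where the brightest probe set of Slc11a2 gave 0.01 and 0.04 and did not pass. A dimmer probe set of the zinc carrier gene Slc30a5 was lower at the high than at the low dose (-1.03, 0.00496), where the brighter one gave -0.57 (0.0921). Slc12a7, a potassium-chloride cotransporter gene, averaged 354 ± 29.8 (SD, n = 5) at the high dose, against 627 ± 130 at the low dose (n = 4), a difference of -0.79 (adjusted p = 0.00241) that was called under all alternatives. Against 575 ± 166 in PBS (n = 3) Slc12a7 at the high dose gave -0.65 (0.032). Slc41a1, a magnesium carrier gene, averaged 129 ± 23.4 at the high dose (n = 5) and 198 ± 25.3 at the low dose (n = 4), or -0.59 (0.00716, called under all alternatives). Against PBS it gave -0.52 (0.0477). The phosphate carrier gene Slc20a1 fell after the high dose by 0.50 on the log2 scale (adjusted p = 0.0283). Slc39a4, a zinc importer gene, had -0.54 after the high dose (0.0428), with PBS replicate 1 at 571 against 987 and 965 on the other PBS arrays. A second probe set of Slc39a4 gave 0.39 and did not pass after the high dose, and gave 0.57 after the low dose (0.0244) where the first gave -0.45 (0.0702).

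These ion carrier calls against PBS were sensitive to single arrays. The Slc12a7 call was lost without PBS replicate 2 (adjusted p = 0.186), PBS replicate 3 (0.111), or high-dose replicates 1 (0.0664), 3 (0.06) or 5 (0.0554). The call of Slc20a1 was lost without PBS replicate 1 (0.113), PBS replicate 2 (0.0825), or high-dose replicates 1 (0.0654) or 4 (0.0548). That of Slc41a1 was lost without any array other than low-dose replicates 3 and 4 and high-dose replicate 4 (0.056 to 0.138). That of Slc39a4 was lost without PBS replicates 2 or 3, low-dose replicate 1, or any high-dose array other than replicate 2 (0.0539 to 0.211). The sodium-potassium-chloride cotransporter gene Slc12a2 was lower at the high than at the low dose (-0.46, 0.0234), and its call was lost without low-dose replicate 3 (0.0898) or high-dose replicate 2 (0.0538), with quantile normalization (0.0542) and with common median scaling (0.142). The zinc carrier gene Slc39a9 was lower as well (-0.51, 0.0457), a call lost under 15 of 23 alternatives, among them the omission of any single array other than PBS replicate 1 and high-dose replicates 1 and 3 (0.0515 to 0.113).

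The ion carriers that rose after the low dose were Slc30a3, which encodes a zinc carrier of synaptic vesicles, and Slc9a8, a sodium/proton exchanger gene. Slc30a3 read 361, 249 and 268 in PBS, 479, 450, 564 and 521 at the low dose, and 446, 407, 370, 278 and 481 at the high dose. All low-dose arrays were above PBS, and the high-dose arrays overlapped both groups. The rise was 0.77 ± 0.18 (adjusted p = 0.00576) and was called under all alternatives. Slc9a8 averaged 279 ± 25.2 (SD, n = 4) at the low dose and 192 ± 10.4 in PBS (n = 3), a rise of 0.51 (0.0125) that was lost without PBS replicate 3 (0.0501) and with common median scaling (0.147). The largest values that did not pass were those of the zinc carrier gene Slc30a4, at -0.86 for the high dose against PBS (0.134) and -0.83 between the high and the low dose (0.0714). The difference between the doses passed without low-dose replicate 4 (0.0435) or high-dose replicate 2 (0.0294). Slc4a1, the anion exchanger of red cells, had 0.51 after the low dose (0.136).

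Genes of the Slc29 and Slc35 families were grouped by family number as carriers of nucleosides and nucleotide sugars, whatever the substrate of each member. Of 11 tested, 2 rose and 1 fell after the low dose, and 1 fell after the high dose. At the high dose 1 was higher and 2 lower than at the low dose. The called shares were 27.3% after the low dose, 9.09% after the high dose and 27.3% between the doses. Of all tested genes, 24.6%, 12.2% and 29% were called. The nucleoside carrier gene Slc29a1 read 1726, 1626 and 2005 in PBS, 1123, 1191, 1264 and 1307 at the low dose, and 1412, 1496, 1363, 1178 and 1238 at the high dose. Both treatments lay below PBS. The fall was -0.54 ± 0.12 at the low dose (adjusted p = 0.00496) and -0.41 ± 0.12 at the high dose (0.031). A dim second probe set of Slc29a1 gave -0.01 and -0.16 and did not pass. The high-dose call was lost without PBS replicate 2 (0.0504), PBS replicate 3 (0.15), high-dose replicate 4 (0.0622) or high-dose replicate 5 (0.0653). Slc29a2, another nucleoside carrier gene, gave -0.86 for the low dose against PBS (0.121) and -1.03 for the high dose (0.0856, and 0.0478 without high-dose replicate 3).

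Slc35d1 encodes a carrier of UDP-sugars in the endoplasmic reticulum that is used for chondroitin sulfate synthesis. It read 129, 109 and 94.5 in PBS, 143, 202, 238 and 212 at the low dose, and 89.1, 83.8, 89.8, 119 and 130 at the high dose. Low-dose arrays were above all others. It rose after the low dose (0.78 ± 0.21, adjusted p = 0.0132), and was lower at the high than at the low dose (-0.89 ± 0.18, 0.00172, called under all alternatives). The low-dose call of Slc35d1 was lost without PBS replicate 3 (0.0594) and with common median scaling (0.0623). Slc35e1 was also lower at the high than at the low dose (-0.65, 0.00714), where a second probe set gave -0.32 (0.325). Slc35g3 rose after the low dose (1.28, 0.0127), with PBS replicate 3 at 93.8 against 28.0 and 23.9. That call was lost without PBS replicate 1 (0.0544) or 2 (0.0729), and the high-dose value of 0.67 (0.201) was 1.18 and passed without PBS replicate 3 (0.0176). Slc35b2, the gene of the sulfate donor carrier of the Golgi, was higher at the high than at the low dose (0.51, 0.0479), a call lost under 11 of 23 alternatives, among them the omission of PBS replicate 2, low-dose replicates 1 or 3, or any high-dose array other than replicate 4 (0.0585 to 0.154).

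Among the remaining groups few genes passed. Of 16 tested carriers of other substrates, 6.25%, 12.5% and 0% were called after the low dose, after the high dose and between the doses. Of all tested genes, 24.6%, 12.2% and 29% were called. Slc16a1, the gene of the lactate and pyruvate carrier MCT1, read 125, 119 and 85.2 in PBS, 61.4, 40.2, 69.9 and 64.2 at the low dose, and 43.1, 36.3, 55.5, 63.3 and 74.4 at the high dose. All peroxide arrays were below all PBS arrays. It fell after the low dose (-0.80 ± 0.25, adjusted p = 0.0288) and the high dose (-0.91 ± 0.24, 0.0227). Between the doses Slc16a1 gave -0.11 (95% interval -0.57 to 0.36). Its low-dose call was lost without PBS replicate 1 (0.095), PBS replicate 2 (0.0987) or low-dose replicate 2 (0.08), and its high-dose call without PBS replicate 1 (0.0746), PBS replicate 2 (0.0959) or high-dose replicate 1 (0.0511). Slc44a1, a choline carrier gene, averaged 292 ± 51.8 (SD, n = 5) at the high dose and 472 ± 33.7 in PBS (n = 3), a fall of -0.69 (0.015) that was lost without PBS replicate 2 (0.0714). Slc48a1, a heme carrier gene, did not pass, at -0.69 after the low dose (0.142) and 0.66 between the high and the low dose (0.102, and 0.0339 without low-dose replicate 2).

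None of the 6 tested sugar carriers passed against PBS in limma. Of all tested genes, 12.2% passed after the high dose and 24.6% after the low dose. An unadjusted p under 0.05 was reached by 3 sugar carriers after the high dose and 0 after the low dose. Of all 113 members, 36 and 37 reached it, and the matching share of all tested genes was not counted. Slc2a1 and Slc2a3, left out of the members by the rule, are not covered. Slc37a4, which encodes the glucose-6-phosphate carrier of the endoplasmic reticulum, read 34.9, 73.8 and 76.0 in PBS, 53.4, 76.6, 60.9 and 134 at the low dose, and 12.1, 51.1, 12.9, 39.5 and 15.3 at the high dose. High-dose arrays were below all low-dose arrays and overlapped the PBS range, and the difference between the high and the low dose was -1.39 ± 0.35 (adjusted p = 0.00687, called under all alternatives that tested it). Against PBS the high dose gave -1.06 (0.0832), which passed without PBS replicate 1 (0.0475) or high-dose replicate 2 (0.0357) and with array quality weights (0.00939). Slc2a5, a fructose carrier gene, had 1.12 after the high dose and did not pass (0.122). The ascorbate carrier gene Slc23a2 rose after the high dose, at 440 ± 21.0 (SD, n = 5) against 307 ± 54.4 in PBS (n = 3), or 0.52 (0.0232), lost without PBS replicate 1 (0.0923) or PBS replicate 2 (0.0596) and with common median scaling (0.0699). Slc23a3, an orphan relative of Slc23a2, gave -0.45 between the high and the low dose and did not pass (0.226), and without high-dose replicate 2 it gave -0.69 (0.0229). The folate carrier gene Slc46a1 had -0.63 after the low dose (0.0631) and -0.71 after the high dose (0.0546). Both values passed with quantile normalization (0.0135 and 0.0245) and with common median scaling (0.0146 and 0.0268), and without low-dose replicate 1 (0.0343 and 0.0457). The high-dose value also passed without low-dose replicate 2 (0.0421).

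The rule by name also took in 3 genes that encode no carrier but a binding partner of one. Slc4a1ap, an adaptor protein gene, read 172, 141 and 127 in PBS, 61.3, 63.6, 63.0 and 77.2 at the low dose, and 115, 158, 103, 165 and 124 at the high dose. The low-dose arrays were below all others. It fell after the low dose (-1.03 ± 0.20, adjusted p = 0.0016) and was higher at the high than at the low dose (0.89 ± 0.17, 0.00111), both called under all alternatives. Slc9a3r1, which encodes the scaffold protein NHERF1, fell after the high dose (-0.63 ± 0.15, 0.0122), a call lost without PBS replicate 2 (0.0605) or PBS replicate 3 (0.0703). Slc9a3r2 gave -0.84 (0.0637), which passed without high-dose replicate 3 (0.043).

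**Figure D4:**
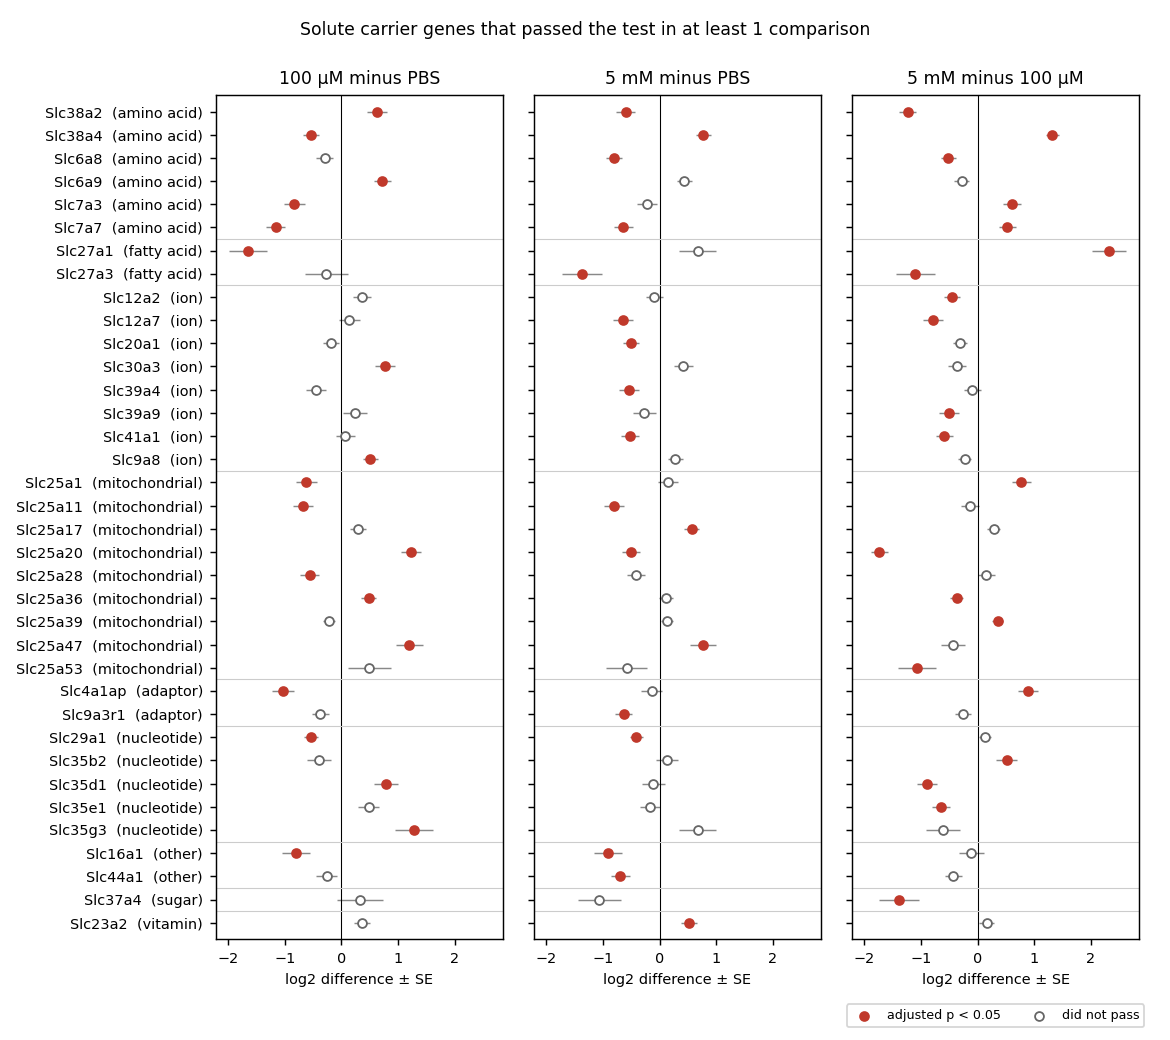
Log2 difference with its SE for the 36 solute carrier genes that passed in at least 1 comparison, grouped by substrate, for the low dose minus PBS, the high dose minus PBS and the high dose minus the low dose. Filled points have an adjusted p below 0.05 and open points did not pass. Slc38a2, Slc38a4 and Slc25a20 passed on opposite sides of 0 in the first and second panels, and 5 genes passed on the same side in both.

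Across substrate groups, 8 genes passed at both doses against PBS. How many of all tested genes did so was not counted. Slc7a7, Slc25a11, Slc29a1 and Slc16a1 were lower at both doses and Slc25a47 higher at both, while Slc38a2, Slc38a4 and Slc25a20 went opposite ways. These comparisons share the PBS arrays. Of the calls listed above, those kept under every alternative numbered 8 of 19 for the low dose, 4 of 18 for the high dose and 11 of 21 between the doses. For genes with a single tested probe set, the probe-set alternative could not end a call.

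Other membrane transport genes gave a setting for these values. Of 20 tested genes of the ABC family, most of which encode ATP-driven pumps, 3 rose and 2 fell after the low dose, 2 fell and none rose after the high dose, and 2 were higher and 4 lower at the high than at the low dose. These are 25%, 10% and 30%, near the 24.6%, 12.2% and 29% of all tested genes. Genes of the Abce and Abcf branches, which encode no membrane pump, made up 4 of the 20. Without them 3 of 16 rose and 1 fell after the low dose, 2 fell after the high dose, and none was higher and 4 lower between the high and the low dose. Abcb1a, a multidrug efflux pump gene, averaged 277 ± 53.8 (SD, n = 4) at the low dose and 136 ± 24.4 in PBS (n = 3), a rise of 0.98 (adjusted p = 0.00433). At the high dose Abcb1a averaged 72.6 ± 17.1 (n = 5), -0.83 against PBS (0.0165; lost without PBS replicate 2 at 0.0933 and PBS replicate 3 at 0.0525) and -1.80 against the low dose (4.41e-06). Its paralog Abcb1b fell after the high dose (-1.43, 0.000358) and was lower than at the low dose (-1.64, 1.67e-05). After the low dose Abcd4 fell (-1.04, 0.0163; 0.0583 without PBS replicate 2), as did Abcf1, which acts in translation and is not a transporter (-0.99, 0.000477).

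Of 27 tested cation pump genes, 2 rose and 2 fell after the low dose, 2 rose and 1 fell after the high dose, and 3 were higher and 7 lower at the high than at the low dose, or 14.8%, 11.1% and 37% called. Of all tested genes, 24.6%, 12.2% and 29% were called. Atp13a3 averaged 487 ± 57.5 (SD, n = 5) at the high dose and 980 ± 156 in PBS (n = 3), or -0.99 (adjusted p = 0.000111). A second probe set of Atp13a3 gave -0.25 there, and 0.29 between the high and the low dose where the first gave -0.95. Atp1b1, a sodium pump subunit gene, rose after the low dose (0.67, 0.0088; 0.0664 with common median scaling). The calcium pump gene Atp2a2 was lower at the high than at the low dose (-1.45, 0.00877), and gave -0.93 against PBS (0.159; 0.0182 without high-dose replicate 4). Atp2c1 had 0.87 after the low dose (0.0804; 0.0325 without PBS replicate 2 and 0.0375 without low-dose replicate 2). Of 3 tested aquaporin and Slco genes, the water channel gene Aqp8 passed in all comparisons, averaging 106 ± 18.5 (n = 3) in PBS, 294 ± 20.2 (n = 4) after the low dose and 68.9 ± 8.21 (n = 5) after the high one. Its log2 difference was 1.39 after the low dose (4.63e-05), -0.55 after the high dose (0.0338) and -1.95 between the high and the low dose (1.72e-07). Aqp1 had 1.04 after the high dose (0.282) and 0.80 after the low dose (0.38), and Slco5a1 0.91 after the high dose (0.0568).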

How the data were processed

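The deposited table holds the authors' intensity values, MAS5 signals per the submitters' processing notes, on a linear scale, 1 per probe set and array. Version and scaling target of MAS5, and detection calls, were not given in the sources used. The 2% trimmed means of the 12 arrays agreed to within 0.0195%, so the deposited scaling was kept. Arrays have no read depth, and their number limits the precision.

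The log2 of each value was taken after 10.1 was added, the 20th percentile of all signals, which understates changes of dim genes. The 66 control probe sets were left out, and the 8695 of 12488 probe sets above the 30th percentile of mean log2 value were tested. limma 3.58.1 (R 4.3.3) fitted 1 mean per group over the 12 arrays, with eBayes, a variance trend and two-sided tests. The tested probe set with the highest mean stood for a gene. Symbols came from the platform annotation, and all 181 member probe sets matched RefSeq by Entrez identifier. On the array, 396 probe sets have several symbols and name no gene here, and 1193 have no annotation entry. Promoters are RefSeq's, found for 122 of 148 members, and were searched with pandas 2.3.3. Figures used matplotlib 3.10.9.

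Members and lists were chosen with earlier results of these data known. Genes were named if past the threshold (up to 24 per comparison), if among the 2 largest changes of their substrate group or comparison list, or if on a fixed list of 12 carriers. Substrate groups followed the Slc family number; family Slc66 was placed after the annotation was seen. On simulated data with 200 of 8695 probe sets changed, 69% of changes of log2 1 were recovered for each dose against PBS and 73% between the doses. The simulated noise was normal and independent, and smaller changes were not simulated. A larger share of genes was called in the real data, so these rates need not hold there. The alternatives were other scalings, offsets, filters, variance models, array weights, fits, probe sets and the omission of each array. The probe-set alternative repeats the main value for a gene with a single tested probe set.

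Same-numbered arrays of different groups did not deviate together (r = -0.18 to 0.15 over 10 pairs), so replicate numbers were not used as pairs.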

Additional observations from a re-analysis of the deposited data

Results flagged for a closer look

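Slc38a2, Slc38a4 and Slc25a20 passed in opposite directions at the low and the high dose against PBS, and the test between the high and the low dose gave log2 differences of -1.23, 1.32 and -1.74.

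The low-dose and high-dose arrays of 64 named genes were checked for an array far from the rest of its group, and 6 of these 128 groups had one. Chance alone flags about 1 in 20 groups. The PBS group, with 3 arrays, was too small for this check, so PBS arrays that lie apart, as for Slc27a1, Slc39a4 and Slc35g3, are not covered. On high-dose replicate 2, Slc25a25 read 40.32 (209.4 to 256.9 on the other high-dose arrays), Slc39a4 627.6 (529.2 to 545.6) and Slc7a3 806.9 (556.2 to 587.5). Slc9a8 read 268.2 on high-dose replicate 4 (223.9 to 235.4 on the others). On low-dose arrays, Slc4a1ap read 77.15 on replicate 4 (61.27 to 63.62 on the others) and Atp2a2 105.4 on replicate 2 (123 to 124.8).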

How the results depend on the processing

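Over 23 alternatives per comparison, 2810 values of named genes were recomputed: 2564 kept their direction and side of the threshold, 178 lost a call, 49 gained one and 19 changed sign. The values kept include those of genes with a single tested probe set under the probe-set alternative, which could not change. With array quality weights the counts of genes past the threshold were 28 for the high dose (24.8% against 19.7% of all genes) and 29 for the low dose (25.7% against 30%) against PBS. With the replicate number as a block they were 11 for the high dose (9.73% against 6.97% of all genes), 20 for the low dose (17.7% against 21.6%) and 17 between the doses (15% against 25%). Of these, 10, 19 and 15 were the same genes as without the block. The block ended the high-dose calls of Slc20a1, Slc23a2, Slc25a20, Slc25a47, Slc27a3, Slc29a1, Slc38a2 and Slc39a4 (adjusted p 0.054 to 0.128) and the calls of Slc12a2, Slc25a36, Slc25a53, Slc27a3, Slc35b2 and Slc39a9 between the doses (0.0518 to 0.13), and Slc37a4 passed for the high dose (0.0416) and Slc44a1 between the doses (0.0399). Leaving out 1 array at a time gave 5 to 18 genes for the high dose, 11 to 24 for the low dose and 15 to 22 between the doses. The cause of these shifts was not tested, though each omission also leaves fewer samples.

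Some values changed sign. Between the high and the low dose, Slc7a5 was -0.01 with quantile normalization and -0.03 to 0.27 over the omissions, Slc25a4 was 0.03 with common median scaling, Aqp1 was -0.07 to 0.73 and Slc16a1 -0.25 to 0.00 over the omissions. For the high dose against PBS, Slc12a2 was 0.01 with array quality weights and -0.20 to 0.01 over the omissions, Slc27a4 was -0.03 with weights, -0.01 with the block and -0.16 to 0.50 over the omissions, Slc25a5 was -0.06 to 0.44 and Slc7a3 -0.38 to 0.04. For the low dose against PBS, Slc27a4 was -0.57 to 0.22 over the omissions. Read by the second-highest probe set, Slc25a5 was -0.14 and Slc39a4 0.39 for the high dose against PBS, Slc25a1 0.13 for the low dose, and Atp13a3 0.29 between the doses. Of the called genes, the filter at the 50th percentile left Slc25a47, Slc25a53, Slc27a1, Slc27a3 and Slc37a4 untested. With 3 PBS arrays and dim signals, small differences could not be resolved.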

Other observations

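Slc38a2 and Slc38a4 lie on the same strand of chromosome 15, with 4 gene records and 0 protein-coding genes between them in RefSeq. Their signals moved in opposite directions in all comparisons, and any part of their position in this was not tested. Their differences between the high and the low dose, -1.23 and 1.32, were both called under every alternative.

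The 35 members too dim to test had group means of at most 29.95, and their highest single value was 48.83, for Slc26a2.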
